A study of Gallus gallus with 6 samples.

Results

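TBX2, TBX15, TBX18 and SHOX encode 4 transcription factors of regional mesenchyme, and their levels were followed in embryonic mesenchyme of the chick (Gallus gallus) by RNA-seq of polyadenylated RNA in 6 libraries. The 4 genes were taken from the deposited table of 17781 genes by symbol, UniProt entry or description. TBX2 and TBX15 were listed by symbol, TBX18 as Q4TVR1_CHICK with the description T-box 18, and SHOX as Q00G66_CHICK with the description Shox. Each had exactly 1 entry. The table placed TBX2 on chromosome 19, TBX15 and SHOX on chromosome 1 and TBX18 on chromosome 3, and the RefSeq annotation of the assembly GRCg7b gave the same chromosomes.

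The tissues had been dissected straight from embryos, and the labels name no treatment. The 3 limb libraries were hindlimb at Hamburger-Hamilton (HH) stage 18, forelimb at HH19 and presumptive forelimb at HH15, which is the limb field before a bud stands out. Neck and flank, both taken as HH19, stood for non-limb mesenchyme. The last library carried the label flank and neck, also of HH19. The flank title gives 9 where its tissue label gives HH19. The labels give no strain, genotype, sex or number of pooled embryos. Each tissue and stage had 1 library, so no value below has a replicate error. Between 7130877 and 9623046 reads were counted per library. Levels are CPM, the count of a gene scaled to the library's total of counted reads, with 95% Wilson intervals, and a count of 0 is set against a floor of 3 reads, which is 0.312 to 0.421 CPM. Intervals and floor cover counting error only. A ratio given as at least divides by that floor and leaves out the counting error of the other library. PRRX1, a homeobox gene that marks limb and lateral plate mesenchyme, was at 117 to 491 CPM in all 6 libraries.

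The library labelled flank and neck stood apart from neck and flank and is called by its label throughout. Whether that label gives its tissue correctly could not be settled from the table, so its values describe this library and are not taken as those of flank or neck tissue. Over the 10048 genes that reached 5 CPM in any library, its log2(CPM + 1) values correlated at r = 0.921 with forelimb HH19 and 0.914 with hindlimb HH18, against 0.877 with forelimb HH15, 0.872 with neck and 0.859 with flank. These correlations run across genes, which are not independent replicates. This library was left out of the comparison of limb with non-limb, and each result that rests on it is given separately.

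T-box proteins bind DNA through a shared domain and act as repressors or activators that give a tissue its regional identity. TBX2 is a repressor, a close paralog of TBX3, and in the chick limb both have been linked to the margins of the bud and to digit identity. TBX15 and TBX18 belong to another branch of the family and can dimerise. In the mouse, TBX15 is needed for the size of skeletal elements, the shoulder blade among them, and for the pattern of the dermis, while TBX18 keeps the anterior and posterior somite compartments apart and is made in limb mesenchyme and epicardium. SHOX (short stature homeobox) promotes growth of the limb skeleton in humans, where its loss shortens the middle segment of the limbs. Mice lack the gene, and in the chick it is expressed in the limb bud.

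TBX2, the repressor, was highest in neck and flank. It was at 16.4 CPM in hindlimb HH18, 24.0 CPM in forelimb HH19 and 27.9 CPM in forelimb HH15, against 67.9 CPM in neck and 66.2 CPM in flank. At the low end, the library labelled flank and neck held 2.13 CPM (19 reads, interval 1.36 to 3.32 CPM), the lowest of the 6. The 3 limb libraries therefore lay below both non-limb tissues and above the library whose label combines them. Neck and flank did not differ beyond counting error (intervals 62.5 to 73.8 and 60.9 to 72.0 CPM). Forelimb HH19 and forelimb HH15 did not either (20.8 to 27.7 and 24.3 to 32.1 CPM). For these neighbours the authors' deposited table gives p = 0.673 and p = 0.136, from a test it does not name. TBX2 in the table spanned 3151 bases, against 9363 bases in RefSeq, and TBX15 32563 bases, against 91088 bases in RefSeq. TBX18 spanned 22429 bases, against 25897 bases in RefSeq. For each of these genes, reads outside the listed span would not be in the count.

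TBX15, the factor of skeletal size and dermal pattern, was high in both established buds and at or near the floor in forelimb HH15, neck and flank. It was at 18.4 CPM in hindlimb HH18 (177 reads) and 22.5 CPM in forelimb HH19 (179 reads). Presumptive forelimb HH15 had 3 reads, 0.421 CPM, and flank had 1 read, 0.121 CPM. Neck had 0 reads, where the floor is 0.369 CPM and the Wilson interval ends at 0.472 CPM. The library labelled flank and neck was highest, at 60.2 CPM (537 reads, interval 55.3 to 65.5 CPM). The 2 buds were close to each other, with intervals of 15.9 to 21.3 CPM in hindlimb HH18 and 19.4 to 26.0 CPM in forelimb HH19 and p = 0.0573 in the authors' deposited table. The 3 lowest libraries could not be told apart at this depth.

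TBX18 was the most graded of the 4. Hindlimb HH18 stood at 46.9 CPM, forelimb HH19 at 17.1 CPM, forelimb HH15 at 3.93 CPM and neck at 7.62 CPM. Flank had 0 reads (floor 0.363 CPM, Wilson interval up to 0.464 CPM), and the library labelled flank and neck had 1092 reads, 122 CPM. No neighbours in this order had overlapping intervals. The nearest pair was neck at 5.94 to 9.76 CPM and forelimb HH15 at 2.72 to 5.68 CPM, for which the authors' deposited table gives p = 0.00287. TBX18 was thus the 1 member of the 4 for which neck and flank differed beyond counting error, as neck was at least 21.0-fold higher than flank, computed against the 3-read floor.

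SHOX reached 1 CPM in only 2 libraries. It was at 43.4 CPM in the library labelled flank and neck (387 reads, interval 39.2 to 47.9 CPM) and at 6.53 CPM in forelimb HH19 (52 reads, interval 4.98 to 8.57 CPM). The others held 0.935 CPM in hindlimb HH18 (9 reads), 0.701 CPM in forelimb HH15 (5 reads), 0.123 CPM in neck (1 read) and 0.363 CPM in flank (3 reads). The intervals of each neighbouring pair among these 4 libraries overlapped. By counting intervals SHOX parted forelimb HH19 from hindlimb HH18, as did TBX2, also higher in forelimb HH19, and TBX18, higher in hindlimb HH18. TBX15 did not, and these libraries also differ in stage.

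**Figure D1:**
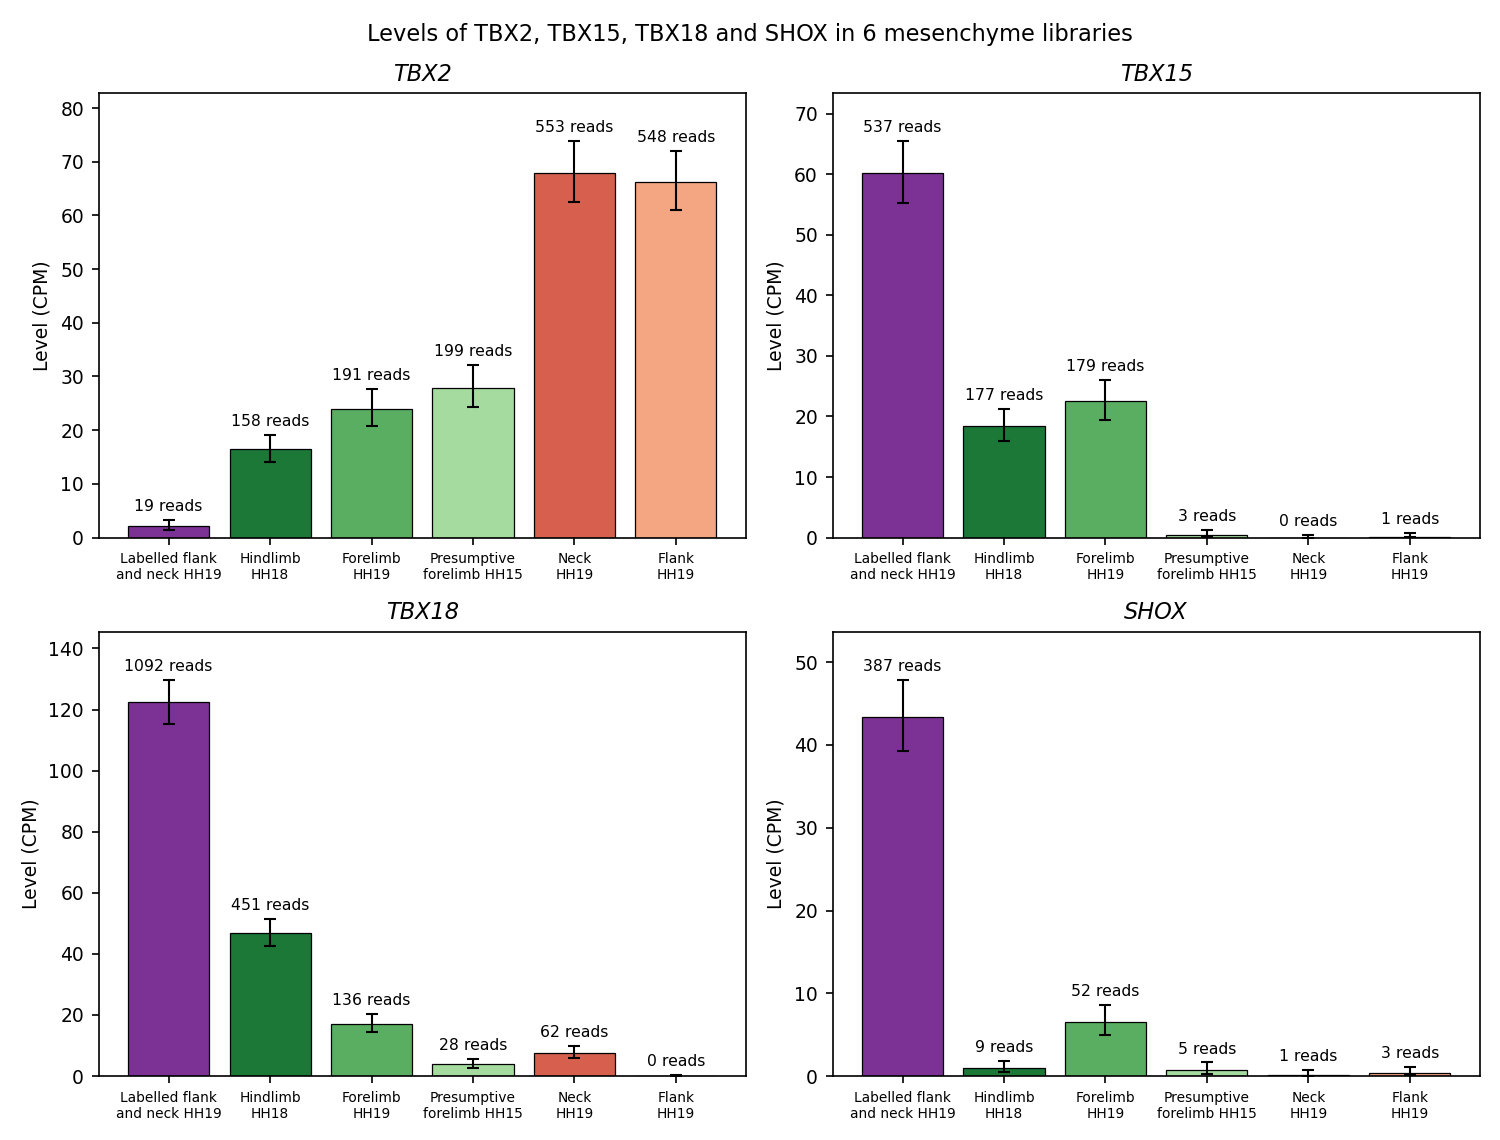
Levels (CPM, y axis from 0) of the 4 genes in the 6 libraries, with 95% Wilson intervals as bars and the read count above each column. TBX2 is highest in neck and flank (67.9 and 66.2 CPM) and lowest in the library labelled flank and neck (2.13 CPM), where TBX15, TBX18 and SHOX are at their highest (60.2, 122 and 43.4 CPM).

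The comparison of limb with non-limb mesenchyme asked which genes part the 3 limb libraries from neck and flank. The levels of limb and non-limb did not overlap for TBX2, which was lower in limb, nor for TBX15 and SHOX, which were higher. For TBX15 and SHOX the gap lay between forelimb HH15 and flank, 3 reads against 1 and 5 reads against 3. The counting intervals of both these pairs overlapped, so only TBX2 was parted beyond counting error. For TBX18 the levels of the classes overlapped, since neck lay above forelimb HH15. Of all 12486 genes tested, 42.9% did not overlap, 15.4% with limb above and 27.5% with limb below, so the count of 3 of 4 is to be read against that share. TBX2 alone also kept a gap of at least 2-fold between the highest limb library and the lowest non-limb one on the log2(CPM + 1) scale, which 1.05% of genes did in that direction, and none of the 4 did with limb above, as 0.168% of genes did. TBX15 passed the filter of 1 CPM through hindlimb HH18 and forelimb HH19 only, and SHOX through forelimb HH19 only, so both could enter only as higher in limb.

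None of the 4 reached an adjusted p below 0.05 in the quasi-likelihood test of edgeR, adjusted by Benjamini-Hochberg over all 12486 genes, of which 0.136% did. The spread in this test comes from the different tissues and stages within a class, not from replicates. The log2 fold change of TBX2 was -1.43 ± 0.23 (SE, edgeR adjusted p = 0.0561), lower in 3 of 3 limb libraries. That of TBX15 was 7.65 ± 2.12 (edgeR adjusted p = 0.113). This fitted value depends on how the 1 read in neck and flank together is treated and is no bound. SHOX was at 3.54 ± 1.37 (edgeR adjusted p = 0.194) and TBX18 at 2.78 ± 1.44 (edgeR adjusted p = 0.295). At an unadjusted edgeR p below 0.05 were TBX2, TBX15 and SHOX, where 23.4% of all genes were, 12.9% higher and 10.5% lower. DESeq2 called TBX2 (adjusted p = 1.18e-05) and TBX15 (adjusted p = 0.0102), where it called 11.4% of genes, and limma called none of the 4, where it called 0.344%. When forelimb HH15 was left out, edgeR called TBX2 (adjusted p = 0.0359) and TBX15 (adjusted p = 0.0139). TBX18 moved most with single libraries, from 1.68 without hindlimb HH18 and 1.80 without flank to 10.6 without neck, a fit in which the only non-limb library is flank with 0 reads. With the library labelled flank and neck counted as non-limb, TBX15, TBX18 and SHOX turned to -0.51, -0.90 and -2.39.

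Between the stages of the forelimb, 3 of the 4 genes were at least 2-fold higher at HH19 than at HH15, where 3.43% of all genes were, and none was at least 2-fold lower, where 6.17% were. These and the following comparisons set 1 library against 1, on the log2(CPM + 1) scale, and have no test. A gene under 1 CPM in 1 library of a pair passed the filter through the other and could be counted only as higher there. This held here for TBX15 and SHOX, both under 1 CPM in forelimb HH15. TBX15 was 53.5-fold higher in forelimb HH19 than in forelimb HH15, with an exact counting interval of 18.003 to 262 that reflects the 3 reads at HH15. SHOX was 9.32-fold higher (3.75 to 29.9) and TBX18 4.35-fold higher (2.88 to 6.79). TBX2 was at 0.860 of its HH15 level (0.701 to 1.05). In these whole-tissue libraries more cells that express a gene and more RNA per cell cannot be told apart.

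Hindlimb HH18 against forelimb HH19 split the 4 genes. TBX18 was 2.74-fold higher in hindlimb HH18 (2.26 to 3.35), a size that 1.78% of genes reached in that direction. SHOX in hindlimb HH18 was at 0.143 of its forelimb HH19 level (0.0620 to 0.293), a size reached by 2.24% of genes in that direction. Being under 1 CPM in hindlimb HH18, SHOX could be counted only as lower there. TBX15 was at 0.818 (0.661 to 1.01) and TBX2 at 0.684 (0.551 to 0.849), both within 2-fold. Stage and limb type change together in this pair and cannot be told apart.

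Against flank, forelimb HH19 was at least 2-fold higher for TBX15, TBX18 and SHOX, as were 4.15% of all genes, and lower for TBX2, as were 9.74%. In flank TBX15, TBX18 and SHOX were under 1 CPM, so each could be counted only as higher in a bud. TBX15 was 186-fold higher with a counting interval of 33.0 to 7391 that rests on 1 read in flank. TBX18 was at least 47.1-fold higher against the floor, and SHOX was 18.02-fold higher (5.83 to 90.2). Hindlimb HH18 was 152-fold higher than flank for TBX15 (27.0 to 6044) and at least 129-fold higher for TBX18, where 3.5% of genes were at least 2-fold higher and 8.88% lower, while SHOX stayed under 1 CPM in both and was not counted. For TBX2, forelimb HH19 and hindlimb HH18 held 0.362 (0.306 to 0.428) and 0.248 (0.206 to 0.296) of the flank level.

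Against neck, forelimb HH19 was at least 61.03-fold higher for TBX15 and 53.2-fold higher for SHOX. The interval for SHOX was 9.13 to 2141, from 1 read in neck. For TBX18 the ratio was 2.24 (1.65 to 3.08), just past 2-fold, and for TBX2 it was 0.353 (0.298 to 0.417). Of all genes, 3.46% were at least 2-fold higher and 13.4% lower in this pair. Being under 1 CPM in neck, TBX15 and SHOX could be counted only as higher in forelimb HH19. Comparisons with forelimb HH19 share that library and are not independent of each other. Neck and flank were both at or under the floor for TBX15 and SHOX, so no ratio between them is given for these genes. For TBX2 neck was at 1.03 of flank (0.910 to 1.16), within 2-fold. TBX18, higher in neck, was among the 5.15% of genes at least 2-fold higher there, and 2.25% were lower. With 0 reads in flank, TBX18 could be counted only as higher in neck.

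**Figure D2:**
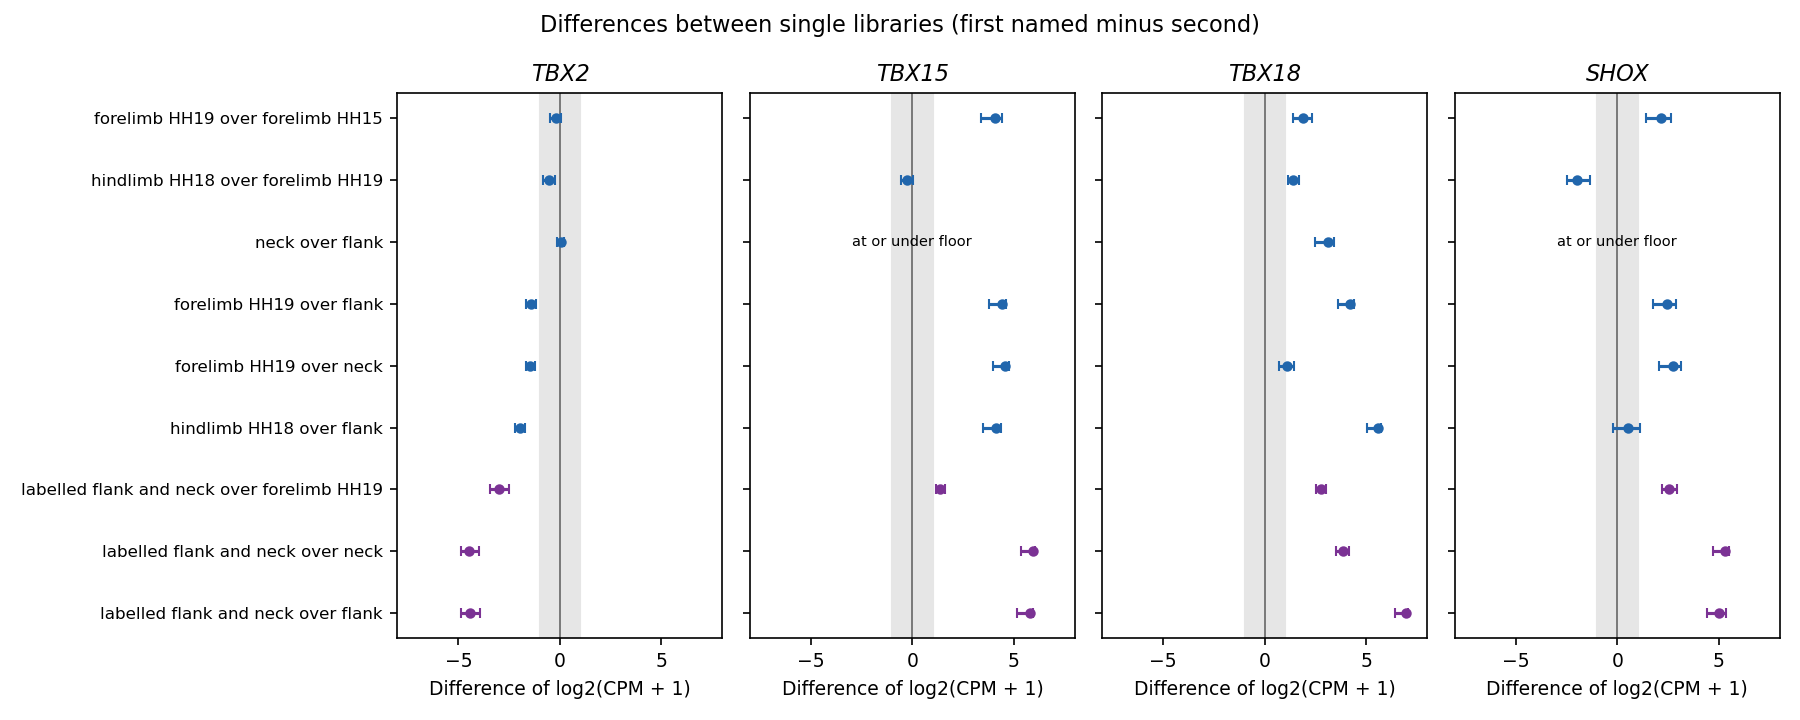
Difference of log2(CPM + 1) between single libraries (x axis, first named minus second) for the 4 genes, with bars that combine the Wilson intervals of both libraries and a grey band marking less than 2-fold. TBX2 lies left of the band in every comparison of a bud with neck or flank, and TBX15 lies within it for hindlimb HH18 over forelimb HH19.

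The library labelled flank and neck lay at least 2-fold outside the range spanned by neck and flank for all 4 genes. Of 12388 genes, 5.17% lay at least 2-fold above both tissues, as TBX15, TBX18 and SHOX did, and 5.64% lay at least 2-fold below both, as TBX2 did. These comparisons were added after the values were seen. Under 1 CPM in neck and flank, TBX15 and SHOX passed the filter through this library only and could lie only above both. With 0 reads in flank, TBX18 could not lie below both. TBX18 was 16.1-fold higher in this library than in neck (12.4 to 21.1) and at least 337-fold higher than in flank. TBX15 was at least 163-fold higher than in neck and 498-fold higher than in flank (89.0 to 19698, from 1 read). SHOX was 353-fold higher than in neck (63.0 to 13975, from 1 read) and 120-fold higher than in flank (40.6 to 582.4). Against neck 6.77% of genes were at least 2-fold higher and 11.4% lower in this library, and against flank 8.91% and 8.43%. TBX2 held 0.0313 of its neck level (0.0187 to 0.0494) and 0.0321 of its flank level (0.0192 to 0.0507). The same library also exceeded forelimb HH19, the established bud of the same stage label, by 2.67-fold for TBX15 (2.25 to 3.19), 7.16-fold for TBX18 (5.99 to 8.62) and 6.64-fold for SHOX (4.96 to 9.04), where 10.5% of genes were at least 2-fold higher. TBX2 was at 0.0887 of forelimb HH19 (0.0522 to 0.142), and 4.65% of genes were at least 2-fold lower. For none of the 4 did its level fall between the levels of the tissues its label names. TBX15, TBX18 and SHOX each had their highest level there by at least 2-fold, as did 2.8% of 12737 genes, and TBX2 its lowest by at least 2-fold, as did 0.911%.

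**Figure D3:**
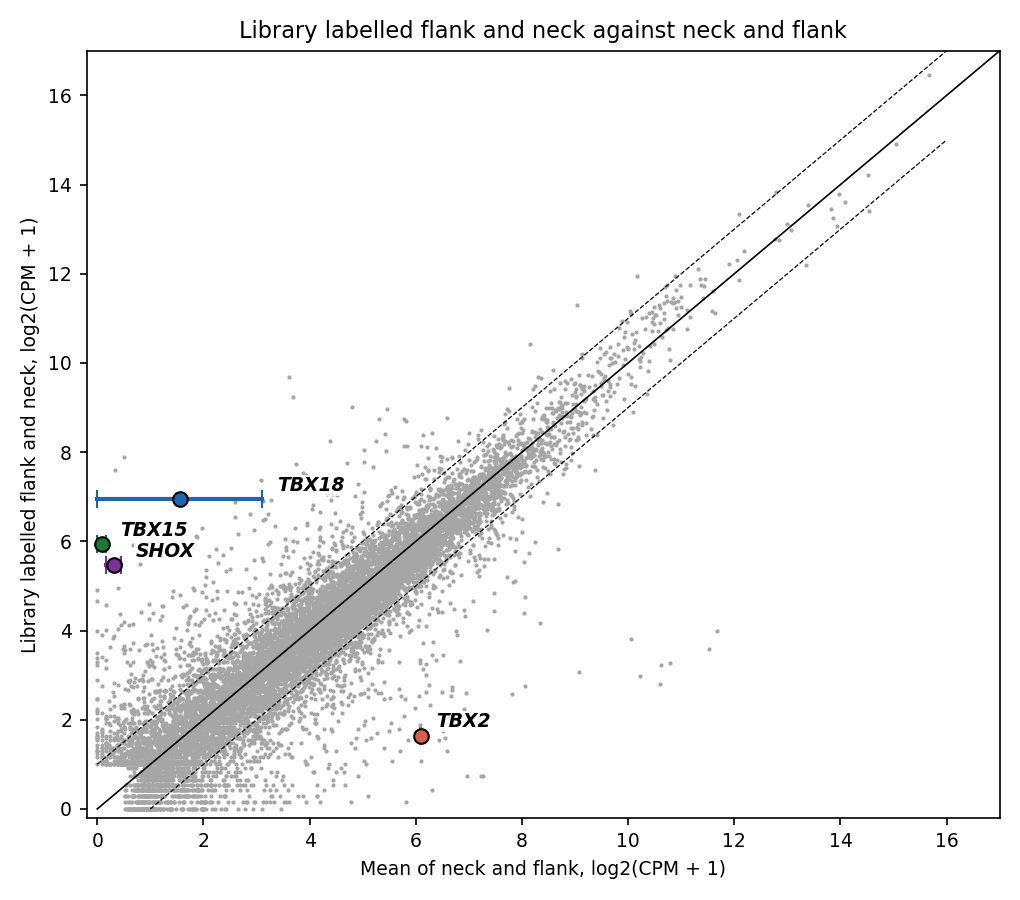
Level in the library labelled flank and neck (y axis) against the mean of neck and flank (x axis), both log2(CPM + 1), for 12388 genes at 1 CPM or more in any of the 3 libraries (grey). The solid line marks equality and the dashed lines 2-fold, and the coloured bars span neck to flank for the 4 genes. TBX15, TBX18 and SHOX lie above the upper dashed line and TBX2 below the lower one.

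Across the 6 libraries the T-box gene TBX2 ran against the other members, with Pearson correlations of log2(CPM + 1) of -0.86 with TBX15, -0.85 with TBX18 and -0.90 with SHOX. TBX15 correlated with TBX18 at 0.87 and with SHOX at 0.84, and TBX18 with SHOX at 0.72. Each is a description over 6 libraries, 1 of which lies at the extreme for all 4 genes.

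Within the T-box family, 14 of 16 listed genes had an entry, and 8 of these, the 3 members among them, reached 5 CPM in any library. TBX3, the paralog of TBX2, had the same extremes at the low end. It was at 52.0 CPM in the library labelled flank and neck, 81.3 CPM in hindlimb HH18, 118 CPM in forelimb HH19 and 234 CPM in forelimb HH15, against 223 CPM in neck and 349 CPM in flank. TBX3 thus overlapped between limb and non-limb, where TBX2 did not. The overlap lay between forelimb HH15 and neck, whose counting intervals overlapped (223 to 245 and 213 to 233 CPM), so their order is not settled. TBX4 and TBX5, which direct hindlimb and forelimb outgrowth, parted hindlimb HH18 from the other libraries. TBX4 was at 131 CPM in hindlimb HH18 and at 4.47 CPM or less in the other 5 libraries. TBX5 was at 0.520 CPM in hindlimb HH18 and between 102 and 336 CPM in the other 5, with 189 CPM in the library labelled flank and neck. In RefSeq TBX3 and TBX5 are neighbouring genes, and TBX2 and TBX4 have a single protein-coding locus between them. TBX2 and its neighbour TBX4 differed in where they were highest: neck and flank for TBX2 and hindlimb HH18 for TBX4. TBXT (brachyury, a mesoderm factor) and MGA (a MAX partner with a T-box) varied least of the 8 genes at 5 CPM, from 4.55 to 8.80 and from 22.3 to 33.3 CPM.

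edgeR tested 9 T-box genes for limb against non-limb and called none, with TBXT and TBX15 higher and TBX2 lower at an unadjusted p below 0.05. DESeq2 called TBX15 and TBX2 of 8 tested, and limma none. For these and the following lists the shares over all genes are 12.9% higher and 10.5% lower at an unadjusted p below 0.05 in edgeR, and 11.4% called by DESeq2 (865 higher and 470 lower of 11755) and 0.344% by limma. The median log2 fold change of the 9 was 0.49, against -0.02 over all genes tested.

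Among SHOX and its homeobox relatives, 5 of 6 listed genes had an entry, and none was called by edgeR, DESeq2 or limma. At an unadjusted edgeR p below 0.05 SHOX was higher and ALX4 lower, and the list median was -0.45. ALX4, a homeobox gene, was at 44.6 CPM in hindlimb HH18, 29.2 CPM in forelimb HH19 and 14.0 CPM in forelimb HH15, against 97.7 CPM in neck and 52.7 CPM in flank. ALX1, a factor of craniofacial and limb mesenchyme, ranged from 10.5 CPM in flank to 101 CPM in neck. PRRX2, a paralog of PRRX1, ranged from 9.40 CPM in forelimb HH15 to 51.8 CPM in neck. In the library labelled flank and neck, where SHOX was highest, ALX4 and PRRX1 had their lowest levels, 8.51 and 117 CPM. SHOX2, the paralog of SHOX, was not analysed here.

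**Figure D4:**
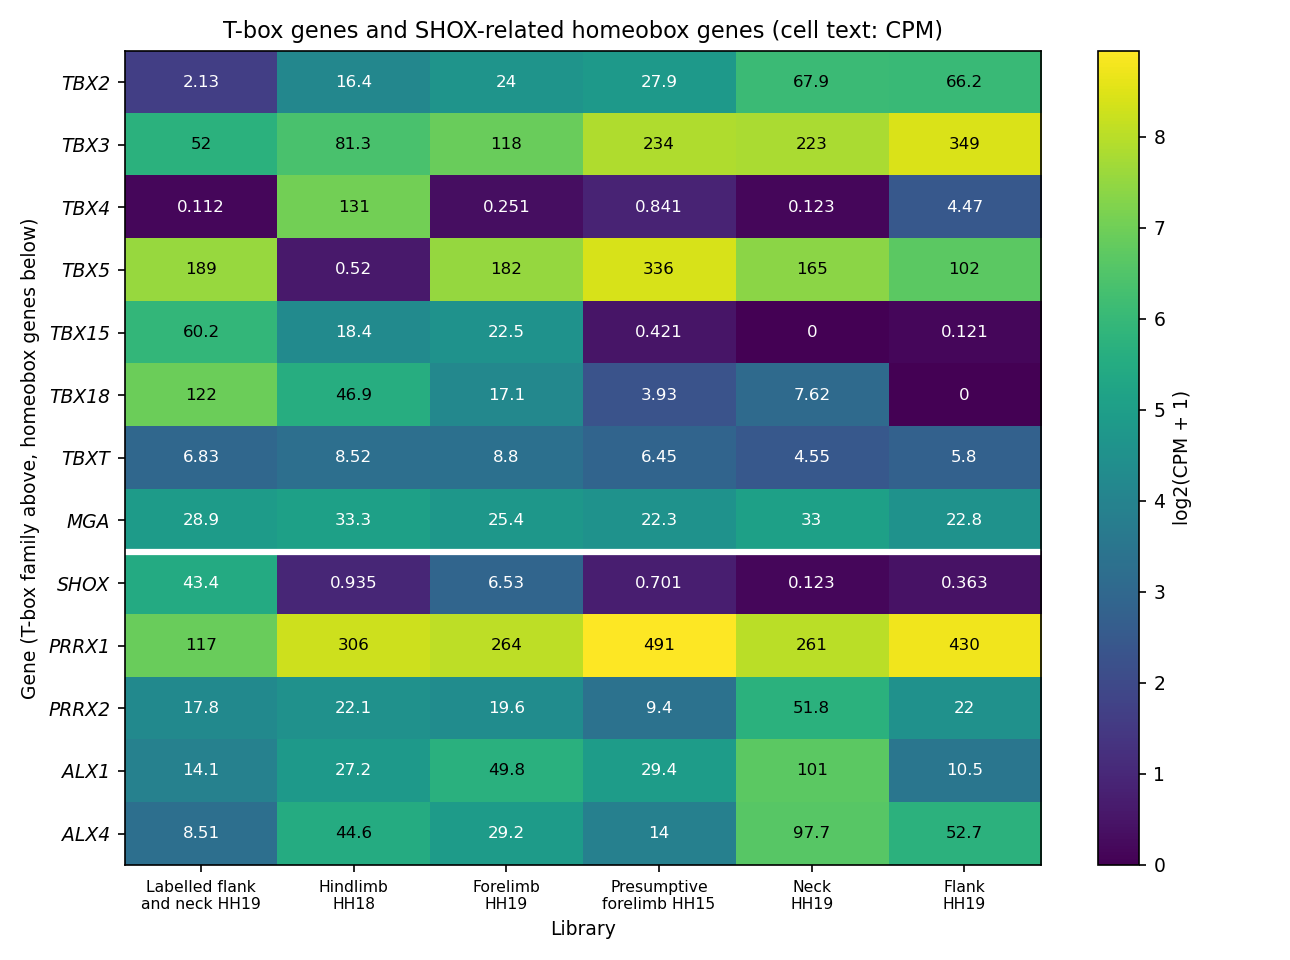
Levels of T-box genes (upper rows) and of SHOX and related homeobox genes (lower rows) in the 6 libraries, coloured by log2(CPM + 1) with CPM printed in each cell. TBX4 is at 131 CPM in hindlimb HH18 alone, TBX5 at 0.520 CPM there, and TBX2 and TBX3 are both lowest in the library labelled flank and neck.

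The signalling genes around TBX2 in the limb held 10 listed genes, 9 of them tested, and edgeR called none. BMP2, GREM1 and SHH were higher in limb at an unadjusted p below 0.05 in edgeR. GREM1 and SHH were under 1 CPM in neck and flank, so both could enter only as higher in limb. SHH was called higher by DESeq2, and no gene by limma, and the list median was 0.33. GREM1, a BMP antagonist that keeps the outgrowth signals of the bud running, was at 20.0 CPM in hindlimb HH18, 11.4 CPM in forelimb HH19 and 0.140 CPM in forelimb HH15, against 0.737 CPM in neck and 0.725 CPM in flank. BMP7, a BMP ligand, was at 65.1 CPM in hindlimb HH18, 38.3 CPM in flank and 11.7 to 15.7 CPM in the other 4. HAND2, a factor of the posterior bud and of lateral plate, ranged from 81.1 CPM in neck to 311 CPM in flank.

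In the list of proximal limb and girdle factors, 7 of 12 genes had an entry and edgeR called none, with MEIS1 and PBX3 among those lower in limb at an unadjusted p below 0.05 in edgeR. MEIS1 was among those called lower by DESeq2, and no gene was called by limma, and the list median was -0.72. MEIS1, a homeobox gene of the proximal limb, was at 73.3, 86.0 and 156 CPM in hindlimb HH18, forelimb HH19 and forelimb HH15, against 255 CPM in neck and 203 CPM in flank. It was lowest, at 32.9 CPM, in the library labelled flank and neck, as was TBX2. HOXA9, a gene of the posterior trunk and limb, was at 118 CPM in that library, 0.123 CPM in neck and 67.3 CPM in flank. HOXD9 was at 4.15 CPM there, at 0 reads in neck and at 80.1 CPM in flank. EMX2, a homeobox gene needed for the shoulder blade in the mouse, ranged from 0.841 CPM in forelimb HH15 to 10.6 CPM in neck.

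The skeletal list, in which SHOX itself is not included, had 10 of 11 genes with an entry and 9 tested, and edgeR called none. COL2A1, COL9A1, FGFR3 and SOX6 were lower in limb at an unadjusted p below 0.05 in edgeR, where 10.5% of all genes were. COL2A1, COL9A1 and SOX6, of 8 tested, were called lower by DESeq2, as were 470 of all 11755 genes, and no gene by limma. The list median was -1.18, against -0.02 over all genes. SOX9, the master factor of cartilage, was highest beside SHOX, at 40.2 CPM in the library labelled flank and neck, against 6.41 CPM in forelimb HH19 and 0.727 to 4.79 CPM in the other 4. FGFR3, a receptor that restrains cartilage growth, was at 4.82 CPM in that library, 4.36, 9.55 and 40.8 CPM in hindlimb HH18, forelimb HH19 and forelimb HH15, against 51.4 CPM in neck and 196 CPM in flank. SOX6 had its lowest level there, at 1.1204 CPM, and its highest in flank, at 37.2 CPM. COL9A1, a cartilage collagen chain, was at 0.104 to 2.10 CPM in the limb libraries, against 5.41 CPM in neck and 22.5 CPM in flank.

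Groucho (TLE) corepressors and histone deacetylases work with many repressors of this kind. Of 7 listed genes, 6 had an entry and were tested, and none was called by edgeR, DESeq2 or limma, with none at an unadjusted edgeR p below 0.05. Their median log2 fold change was -0.02, as over all genes. HDAC1 had its highest level in the library labelled flank and neck, at 498 CPM, against 187 to 264 CPM in the other 5. TLE1 was at 9.19 CPM there and highest in neck, at 27.5 CPM. TLE2 ranged from 1.13 to 3.99 CPM and TLE4 from 6.79 to 15.8 CPM.

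The genes most like each member were sought among 2688 named genes that reached 5 CPM and spanned at least 2-fold, by the Pearson correlation of log2(CPM + 1) over the 6 libraries. For TBX15 they were COL25A1 (0.994), FGF18 (0.992), TFAP2A (0.992), PARM1 (0.978) and BEAN (0.973). TFAP2A, a factor of ectoderm, neural crest and limb bud, was at 192 CPM in the library labelled flank and neck, 99.97 CPM in hindlimb HH18 and 81.8 CPM in forelimb HH19, against 1.54 CPM in forelimb HH15, 0 reads in neck and 0.604 CPM in flank. FGF18, a growth factor of the skeleton, had the same 3 highest libraries as TBX15. It was at 13.9, 5.40 and 3.84 CPM in the library labelled flank and neck, forelimb HH19 and hindlimb HH18. Between these buds TBX15 did not differ beyond counting error, so no shared order of them is read.

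For TBX18 the most similar genes were CA9 (0.996), JHDM1D (0.979), EYA2 (0.977), ADCY7 (0.972) and CXCL12 (0.971). CXCL12, a chemokine that guides migrating cells, shared with TBX18 a trough in flank (1 read, 0.121 CPM). It also shared the order of the highest libraries, at 67.7 CPM in the library labelled flank and neck and 31.3 CPM in hindlimb HH18. Forelimb HH19 and neck were nearly level for CXCL12, at 11.1 and 10.9 CPM, where TBX18 was at 17.1 and 7.62 CPM. EYA2, a coactivator of muscle and placode development, ran from 28.7 CPM in that library down to 2.18 CPM in flank.

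For SHOX they were LMO3 (0.992), ERO1L (0.976), C1QTNF1 (0.974), AASDHPPT (0.973) and CDH17 (0.968). LMO3, a LIM-only cofactor, was at 20.4 CPM in the library labelled flank and neck and 4.90 CPM in forelimb HH19, and between 0.491 and 1.82 CPM in the other 4. For TBX2 they were CLCN7 (0.995), PRKAB1 (0.995), SLC38A10 (0.989), BRPF3 (0.989) and GALNTL4 (0.988), whose own ranges were narrower. CLCN7, a lysosomal chloride transporter, spanned 6.05 to 17.8 CPM. These are the highest values of a search over 2688 candidates in 6 libraries and are descriptions only.

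**Figure D5:**
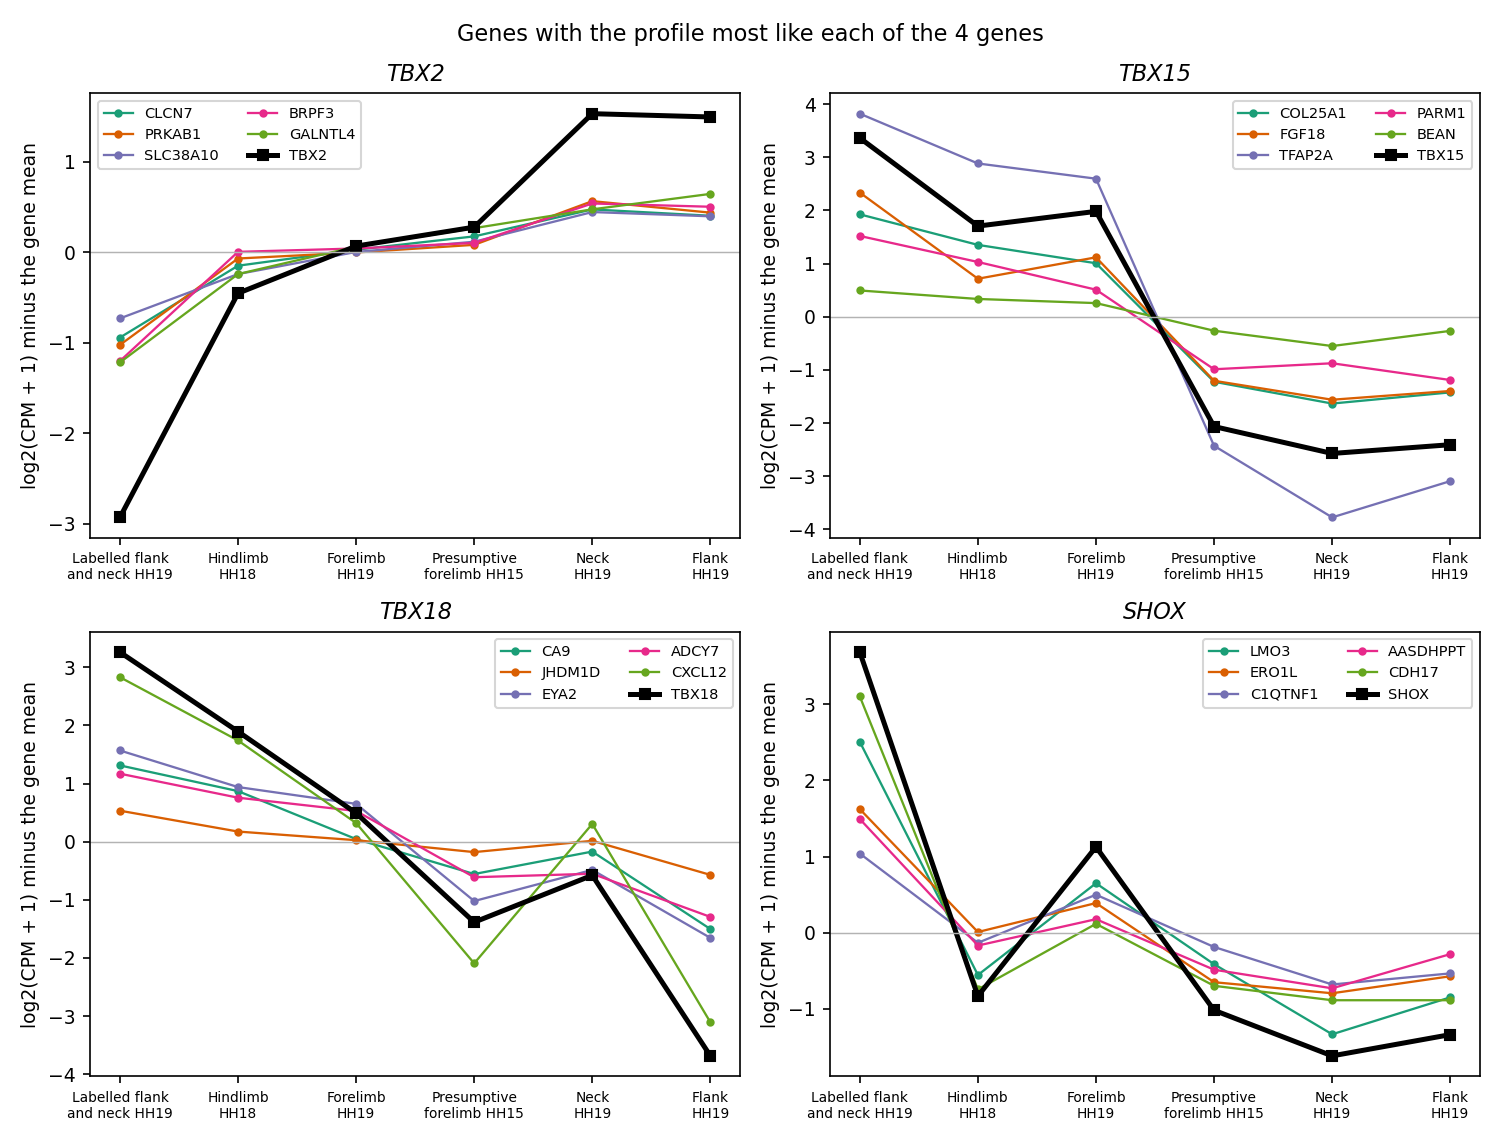
Profiles of the 4 genes (black) and of the 5 named genes most correlated with each (coloured) over the 6 libraries, as log2(CPM + 1) minus the gene's own mean. The genes most like TBX2 have smaller ranges and, like it, are lowest in the library labelled flank and neck, and those most like SHOX share its peaks in the library labelled flank and neck and in forelimb HH19.

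Markers of other tissues moved with some of these levels, and their part in the results was not tested. The 10 coelomic lining and epicardial genes, a site where TBX18 is also known, summed to 20.6 CPM in the library labelled flank and neck, 101 CPM in hindlimb HH18, 43.4 CPM in forelimb HH19 and 707 CPM in forelimb HH15, against 1143 CPM in neck and 1722 CPM in flank. Most of that was ALDH1A2, a retinoic acid synthase that lateral plate mesenchyme also makes, at 13.0 to 1370 CPM, with GATA5 at 4.93 to 224 CPM, BNC1 at 1.1204 to 106 CPM and GATA4 at 0.126 to 19.4 CPM. UPK3B had 0 reads in all 6. Neck and flank, the libraries with the highest sums, also had the highest TBX2. TBX18 had 0 reads in flank, where the sum, mostly ALDH1A2 (1370 CPM, against 824 CPM in neck), peaked. List members differed in this pair. Of 8 at 1 CPM, 2 were at least 2-fold higher in neck, as was TBX18, beside 5.15% of all genes. These were GATA4 (19.4 against 0.725 CPM) and WT1 (10.1 against 3.75 CPM), which is named after its values were seen. GATA4, under 1 CPM in flank, passed the filter through neck only and could be counted only as higher there. BNC1 was lower in neck (43.4 against 106 CPM), beside 2.25% of all genes. The 9 of 13 somite genes with an entry summed to 31.7 CPM in the library labelled flank and neck, 8.21 CPM in hindlimb HH18, 33.0 CPM in forelimb HH19 and 3.93 CPM in forelimb HH15, against 15.1 CPM in neck and 8.22 CPM in flank. PAX3, a gene of migrating muscle precursors, was at 14.8 CPM in forelimb HH19, 6.16 CPM in the library labelled flank and neck and 1.97 CPM or less in the others. PAX7 was at 5.15 CPM in forelimb HH19 and below 1 CPM in the others. MEOX1 was highest in the library labelled flank and neck, at 18.9 CPM, against 2.52 to 8.80 CPM in the others. MEOX2 was highest in neck, at 5.41 CPM, and lowest in forelimb HH15, at 0.140 CPM. In the library labelled flank and neck MEOX2 was at 1.34 CPM. UNCX, a somite gene, had 0 reads in 5 libraries and 3 reads, 0.336 CPM, in the library labelled flank and neck. MYF5, of the same list, had 32 reads (3.59 CPM) in that library, 13 reads (1.63 CPM) in forelimb HH19 and 0 reads in the others. UNCX and MYF5 are named after their values were seen.

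Blood genes (5 of 10 with an entry) summed to 33401 CPM in flank and to 42.7 to 3773 CPM in the other 5, with the lowest sum in the library labelled flank and neck. The globins HBZ, HBBA, HBAA and HBAD made up most of it. TAL1, the remaining blood gene, went the other way in the library labelled flank and neck only and is named after its values were seen. It was highest in that library, at 4.03 CPM (36 reads, interval 2.91 to 5.58 CPM). Flank came next, at 2.90 CPM with an overlapping interval (1.95 to 4.32 CPM), and the others were at 0.520 to 0.880 CPM. Endothelial genes (7 of 8) summed to 49.2 to 177 CPM, and members went different ways in the library labelled flank and neck. TEK, VWF and TIE1 were highest in neck (39.9, 16.1 and 24.2 CPM) and at 4.93, 1.34 and 5.83 CPM in that library. ERG and KDR were highest there, at 22.4 and 45.7 CPM, against 21.3 and 43.2 CPM in neck, and KDR is named after its values were seen. For both genes the counting intervals in that library and in neck overlapped. Neural genes (6 of 10) summed to 34.7 to 76.3 CPM, with SOX2 at 0.281 CPM or less and NEUROG1 at 0 in all 6, and DCX from 3.74 CPM in hindlimb HH18 to 53.2 CPM in flank. STMN2, a neuronal gene, peaked with TBX15, TBX18 and SHOX, at 6.27 CPM (56 reads) in the library labelled flank and neck, against 1.21 CPM or less in the other 5. ELAVL4 ranged from 21.9 to 37.1 CPM. Ectoderm genes (7 of 9) summed to 24.9 to 68.6 CPM, and members went different ways. KRT5, EPCAM and CLDN1 were lowest or near lowest in the library labelled flank and neck (0.560, 0.448 and 0.336 CPM) and reached 27.7, 8.55 and 2.94 CPM elsewhere. GRHL3 and CDH1 had their highest levels in that library, and CDH1 is named after its values were seen. GRHL3 was at 6.83 CPM there, against 2.24 to 4.79 CPM in the other 5, and CDH1 at 31.7 CPM, against 16.2 to 26.5 CPM. Their intervals there overlapped those of the next library, which was neck for GRHL3 (5.32 to 8.78 and 3.51 to 6.55 CPM). For CDH1 it was forelimb HH15 (28.2 to 35.6 and 23.0 to 30.6 CPM). Of the 34 marker genes tested for limb against non-limb, edgeR called none, with 1 higher and 10 lower at an unadjusted p below 0.05, beside 12.9% higher and 10.5% lower of all genes. Of 31 tested by DESeq2, ELAVL4 was called higher and TCF21, PECAM1 and DCX lower, beside 865 higher and 470 lower of all 11755 genes, while limma called none. TCF21, under 1 CPM in every limb library, passed the filter through neck and flank only and could enter only as lower in limb.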

How the data were processed

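The deposited table, made by the authors, holds 1 row per gene for 6 libraries. Its reads columns are counts per gene, and its normalised columns deposited by the authors are CPM, each its reads column times 1 constant. Its fold columns are a ratio of 2 libraries by the authors, and its p-value columns, deposited by the authors, come with no stated test or adjustment. TopHat 1.4.0 and galGal 4 stand in the submitters' processing notes without a role, and the read counter and annotation are not given in the sources used here. The table's positions run past the ends of that build, so no coordinates or sequences are printed. Gene counting could split reads between close paralogs or overlapping genes, and its use of strand is not stated. The column with the initials FN was matched to the library labelled flank and neck, and 0 per-sample columns stayed unused.

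CPM were recomputed from the counts. Pairs of libraries were compared by log2(CPM + 1) among genes at 1 CPM or more in either, with at least 2-fold counted, and by ratios with exact binomial intervals. Limb against neck and flank was tested with edgeR's quasi-likelihood test on counts (TMM, two-sided, Benjamini-Hochberg over all genes, adjusted p below 0.05; common biological coefficient of variation 0.283), and SE is the fold change over the root of F. The same code was run on simulated counts with 200 changed genes. These counts were drawn as replicates with a common variation, unlike the different tissues and stages here. That run therefore bears on the code and not on the results. Nothing says the libraries are independent replicates of a class. The 4 genes and the 13 lists (121 genes, 95 with an entry) were chosen with earlier results of these data known. Named genes are the 4, family genes at 5 CPM, up to 4 per other list with the widest range, and the 5 most like each of the 4; others named for passing a threshold were chosen after their values were seen. Of all entries, 14 carry a spreadsheet date as name and stayed unnamed. Alternatives were other scalings, pseudocounts, filters and tests, and leaving out each library. Tables and figures were made in Python 3.11.15 (matplotlib 3.10.9, scipy 1.17.1, pandas 2.3.3, numpy 2.4.6) and fits in R 4.3.3 with DESeq2 1.42.0, limma 3.58.1 and edgeR 4.0.16. The values of 1 listed gene are not reported here.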

Additional observations from a re-analysis of the deposited data

How the results depend on the processing

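The counts and values that limit the results are these. With 1 library per tissue and stage, depth sets the counting error alone. The edgeR count for limb against non-limb was 17 genes, 13 with DESeq2 size factors, 259 with no filter, 1335 by DESeq2 and 43 by limma. It was 0 with the library labelled flank and neck added (2207 at an unadjusted edgeR p below 0.05), and 0 to 620 with each library left out in turn: 620 without forelimb HH15, and 0 without forelimb HH19, hindlimb HH18, neck or flank, where 2151, 2345, 1535 and 1971 had an unadjusted p below 0.05 in edgeR. Where 1 non-limb library is left, it is assumed to vary like the others, and the cause of these shifts was not tested. TBX2 passed at -1.43 by DESeq2 and at -1.43 with no filter (edgeR adjusted p = 0.0357), and ranged from -1.58 to -1.25 with each library left out. TBX15 passed at 7.97 by DESeq2 and ranged from 6.74 to 9.91. Each passed edgeR without forelimb HH15 alone among those. TBX18 ranged from 1.68 to 10.6, and SHOX from 2.93 to 4.52 over 4 fits, since without forelimb HH19 it missed the filter. With the library labelled flank and neck in the non-limb class, TBX15, TBX18 and SHOX reversed to -0.51, -0.90 and -2.39, by that library's own levels, and TBX2 was at -0.88 (edgeR adjusted p = 0.653).

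Rescaling by TMM or DESeq2 size factors took TBX2 in neck to 61.1 or 59.9 CPM, outside its counting interval, and left the other 23 levels inside theirs. That put TBX2 in neck below flank, which was then at 65.7 or 66.1 CPM. TMM took TBX2 in forelimb HH19 over neck to -1.23. A pseudocount of 0.1 widened differences that involve few reads. For forelimb HH19 over forelimb HH15 TBX15 became 5.44 and SHOX 3.05, for hindlimb HH18 over forelimb HH19 SHOX became -2.68, and for neck over flank TBX18 became 6.27. For forelimb HH19 over flank TBX15, TBX18 and SHOX became 6.68, 7.43 and 3.84, and over neck TBX15 and SHOX 7.82 and 4.90. For hindlimb HH18 over flank TBX15, TBX18 and SHOX became 6.39, 8.88 and 1.16. For the library labelled flank and neck over neck, TBX2, TBX15 and SHOX became -4.93, 9.24 and 7.61, and over flank TBX2, TBX15, TBX18 and SHOX -4.90, 8.09, 10.3 and 6.55. Counts of genes at least 2-fold apart were 1134, 460 and 885 for forelimb HH19 over forelimb HH15, hindlimb HH18 over forelimb HH19 and neck over flank. They were 1802, 904 and 1425 with a pseudocount of 0.1 and 714, 289 and 588 at 5 CPM. No paired analysis was possible because each group has 1 library.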

Other observations

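Without the library labelled flank and neck, an alternative chosen after its values were seen, partly different named genes had profiles closest to the 4 over the remaining 5 libraries (1836 candidates). The r values come from a search over these candidates and are descriptions only. For SHOX, PAX7 and PAX3, genes of migrating muscle precursors, then stood among the 5 closest (r = 0.986 and 0.975). Of these 5 libraries SHOX reached 1 CPM in forelimb HH19 only, and PAX7 and PAX3 reached 5 CPM there only. Both r values thus restate 1 shared high library. PAX3 was at 1.97 CPM in hindlimb HH18 and 14.8 CPM in forelimb HH19. For TBX15, FGF18, TFAP2A and COL25A1 were among the 5 closest with and without that library. For TBX18, CA9 was (71.8 CPM in hindlimb HH18 and 40.1 CPM in forelimb HH19), beside ZEB2, a zinc finger repressor of mesenchyme, at 29.2 and 18.8 CPM in these libraries. For TBX2, SFRP1, a secreted Wnt antagonist, and LTBP1, which binds latent TGF-beta in the matrix, entered. LTBP1 was at 30.9, 55.9 and 81.8 CPM in hindlimb HH18, forelimb HH19 and forelimb HH15, against 252 CPM in neck and 235 CPM in flank. Its level in the library labelled flank and neck was 92.0 CPM, within the range of the other 5 libraries, where TBX2 was at 2.13 CPM.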
